A study of Mus musculus with 2 samples.

Results

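Open chromatin was described at 6 mouse genes linked to thyroid hormone and to the X-zone of the adrenal cortex. They are the thyroid hormone receptor genes Thrb and Thra, the deiodinase genes Dio1 and Dio2, the lipid kinase gene Pik3c2g and the cytochrome P450 gene Cyp2f2. The genes were chosen by symbol, as 6 of 21938 protein-coding genes in the annotation. For each gene, peaks were taken within 1 kb of any transcription start, and across a domain made of the gene body and up to 50 kb on either side. A flank stopped at the next start of another protein-coding gene.

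The study measured chromatin accessibility by DNase-seq, in which the nuclease DNase I cuts DNA of isolated nuclei wherever it is open. The tissue was the whole adrenal gland of female mice of strain B6CASTF1/J, a first-generation cross of C57BL/6J with CAST/EiJ, aged 36 days and with no treatment named. The labels give 1 group of 2 libraries, biological replicates 1 and 2, whose animals carry different numbers but the same donor record. No second condition was analysed here, so that the comparisons are between the replicates and between the 6 genes and all other genes.

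Thyroid hormone acts through the nuclear receptors encoded by Thra and Thrb, which bind DNA at AGGTCA half-sites, often paired with a retinoid X receptor. Without hormone they recruit corepressors, and with hormone they recruit coactivators. The deiodinases Dio1 and Dio2 turn the prohormone thyroxine into the active hormone. The X-zone is an inner layer of the mouse adrenal cortex, next to the medulla, that is left over from the fetal gland and persists in young females. Thrb has been placed in the inner cortex of the mouse, Pik3c2g is used as an X-zone marker, and Cyp2f2 is otherwise best known from club cells of the lung. In the gland taken whole, fewer cells of a type and less signal in each cell cannot be told apart, and a peak cannot be assigned to a zone.

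The sequences below are those on which the results turn, namely the promoter sites of the receptors and of Cyp2f2 and the footprinted distal sites discussed with them. Each is the reference sequence of mm10 (RefSeq GRCm38.p6), written 5′ to 3′ on the strand of the gene and limited to bases inside the peaks of both libraries and outside annotated UTRs. The mice are hybrids, so that 1 of their 2 alleles can differ from it. Capitals mark bases inside a deposited footprint, a short stretch protected from cutting, of at least 1 library.
Thrb promoter, chr14:17660781-17660895: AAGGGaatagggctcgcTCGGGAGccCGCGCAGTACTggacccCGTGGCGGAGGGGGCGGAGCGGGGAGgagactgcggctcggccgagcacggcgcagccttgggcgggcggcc
Thrb upstream site 1, chr14:17659121-17659300: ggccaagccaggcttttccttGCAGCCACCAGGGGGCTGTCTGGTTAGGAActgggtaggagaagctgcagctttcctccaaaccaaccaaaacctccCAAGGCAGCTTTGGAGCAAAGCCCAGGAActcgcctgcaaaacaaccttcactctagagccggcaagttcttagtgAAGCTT
Thrb upstream site 2, chr14:17633001-17633160: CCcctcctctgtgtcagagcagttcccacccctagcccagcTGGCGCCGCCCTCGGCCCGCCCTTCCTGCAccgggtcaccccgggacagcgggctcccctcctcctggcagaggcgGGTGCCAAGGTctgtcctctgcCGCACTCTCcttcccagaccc
Thra promoter, chr11:98741701-98741784: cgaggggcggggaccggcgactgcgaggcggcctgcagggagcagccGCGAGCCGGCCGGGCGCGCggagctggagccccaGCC
Thra intronic site, chr11:98747541-98747680: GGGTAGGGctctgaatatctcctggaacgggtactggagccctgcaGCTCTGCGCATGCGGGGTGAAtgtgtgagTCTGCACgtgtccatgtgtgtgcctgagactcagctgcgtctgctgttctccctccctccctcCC
Pik3c2g inner start, chr6:139841381-139841444: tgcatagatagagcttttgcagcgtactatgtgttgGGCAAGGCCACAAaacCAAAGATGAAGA
Pik3c2g intronic site, chr6:139874541-139874720: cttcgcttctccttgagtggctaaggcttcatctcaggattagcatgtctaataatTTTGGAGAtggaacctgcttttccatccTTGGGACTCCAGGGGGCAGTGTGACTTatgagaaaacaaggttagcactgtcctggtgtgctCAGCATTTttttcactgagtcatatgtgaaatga
Cyp2f2 promoter, chr7:27119721-27119908: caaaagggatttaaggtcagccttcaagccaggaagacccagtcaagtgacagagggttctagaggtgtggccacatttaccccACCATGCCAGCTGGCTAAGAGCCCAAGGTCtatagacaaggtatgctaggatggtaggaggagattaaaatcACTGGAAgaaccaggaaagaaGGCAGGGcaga
Cyp2f2 intronic site, chr7:27132721-27132860: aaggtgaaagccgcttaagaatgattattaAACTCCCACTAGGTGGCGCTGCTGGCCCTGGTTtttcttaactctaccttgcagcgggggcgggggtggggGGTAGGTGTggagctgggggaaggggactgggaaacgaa
Dio2 exonic site, chr12:90729801-90729940: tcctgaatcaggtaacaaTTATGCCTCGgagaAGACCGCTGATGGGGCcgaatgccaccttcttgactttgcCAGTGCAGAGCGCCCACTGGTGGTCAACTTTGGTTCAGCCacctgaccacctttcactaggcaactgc
Dio2 upstream site, chr12:90740581-90740740: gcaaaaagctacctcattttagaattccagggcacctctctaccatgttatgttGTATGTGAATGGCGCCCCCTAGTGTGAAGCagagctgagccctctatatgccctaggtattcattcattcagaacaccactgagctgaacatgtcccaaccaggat

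A peak at the promoter was found in both replicates at 5 of the 6 genes, and at 67.4% of all protein-coding genes (68.6% in replicate 1 and 69.6% in replicate 2). The height of a peak is the deposited signal at its summit, which the authors scaled by a factor that the sources used here leave unstated. The promoter height of a gene is that of the strongest peak within 1 kb of any of its starts. Thrb was the highest of the 6, with a promoter height of 9.27 in replicate 1 and 12.7 in replicate 2 (11 ± 2.44, mean ± SD, n = 2). These values were above those of 74% and 71% of all genes. Thra, the second receptor gene, had 5.15 and 8.79 (6.97 ± 2.58, n = 2), above 58.6% and 61.3% of genes. Both receptor genes therefore lay above the all-gene medians of 2.97 and 4.46 in both libraries.

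The promoter of Cyp2f2, a single-start gene, had heights of 3.3 and 4.07 (3.68 ± 0.545, n = 2), close to the middle of all genes (51.4% and 48.9% were lower). Pik3c2g reached 0.897 and 0.644, at a different site in each library (0.771 ± 0.179, n = 2), and Dio2 reached 0.551 and 0.547 (0.549 ± 0.00287, n = 2). Both were far under the all-gene median in each library. Dio1 had no peak within 1 kb of either of its starts in either library. The order of the 5 genes with a peak was the same in both replicates. The heights of Thrb in the 2 libraries did not overlap those of Thra, although the value of Thra in replicate 2 (8.79) came close to that of Thrb in replicate 1 (9.27). Across libraries, promoter heights were higher in replicate 2 in 96.4% of the genes that had a peak in both. Among the 5 members they were higher in replicate 2 in Thrb, Thra and Cyp2f2, and lower in Pik3c2g and, by a margin of -0.01 on the log2 scale, in Dio2.

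**Figure D1:**
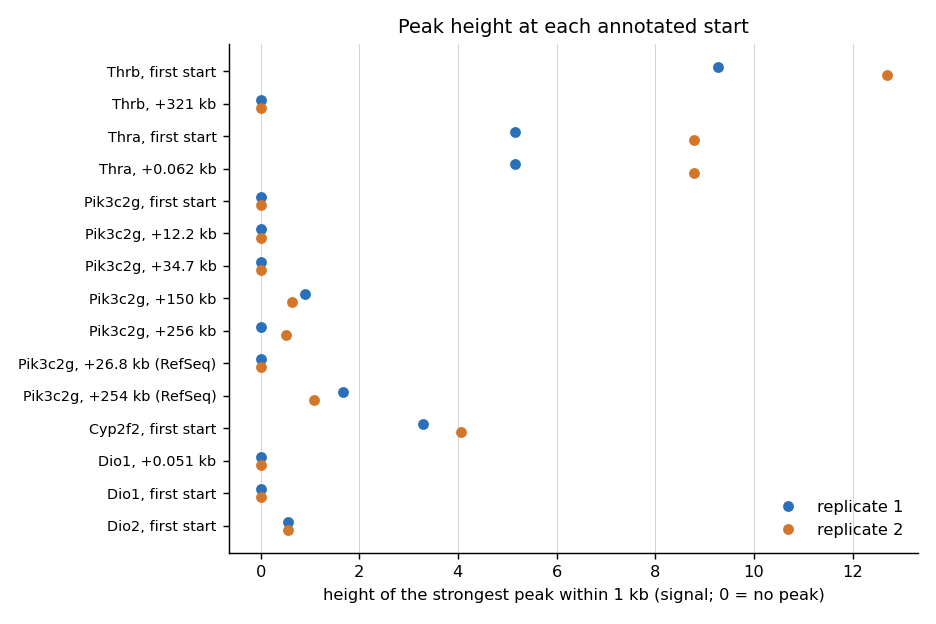
Height of the strongest peak within 1 kb of each annotated start of the 6 genes, in signal units on the x axis, for replicate 1 (blue) and replicate 2 (orange). Starts are named by their distance from the first start of the gene, those marked RefSeq are added for Pik3c2g from that annotation, and a point at 0 means no peak. The first start of Thrb has 9.27 and 12.7, its start 321 kb further in has no peak, and both starts of Dio1 are at 0.

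Starts of the same gene differed in their peaks. Thrb (chr14:17660261-18038090, plus strand) has a first start at position 17660896, from which the widely expressed beta1 receptor is made, and an inner start at 17981529, that of the beta2 receptor known from pituitary and retina. The promoter peak of 9.27 and 12.7 covered the first start, with its centre 25 bp upstream in both libraries. At the inner start, 321 kb downstream, neither library had a peak within 1 kb. The nearest peak there lay 5568 bp away in replicate 1 and 5517 bp away in replicate 2, with heights of 0.486 and 0.591. The 1 kb around the first start had an observed-to-expected CpG ratio of 0.794, against 0.286 at the inner start and a median of 0.562 over 41525 starts of protein-coding genes.

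The footprints in the Thrb promoter peak numbered 4 in replicate 1 and 3 in replicate 2. The longest stood at nearly the same place in both, at chr14:17660824-17660848 and chr14:17660824-17660849. It covers the run of capitals CGTGGCGGAGGGGGCGGAGCGGGGAG in the printed promoter, which holds the letters GGGCGG of a GC box. That hexamer occurs 2 more times in the printed stretch, outside any footprint.

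Thra (chr11:98740638-98769006, plus strand) has starts only 62 bp apart in the basic GENCODE set, and 1 peak covered both, at the same coordinates in the 2 libraries (chr11:98741701-98741880). The annotated gene begins further upstream, at 98740638, where a peak (chr11:98740541-98740740) had 2.77 and 4.62. That peak was counted as distal, since no start of the basic set lies within 1 kb of its centre. The CpG ratios at the basic-set starts of Thra, 0.769 and 0.796, were like that of the first Thrb start. Cyp2f2 (chr7:27119909-27133660, plus strand) had its peak over the start, with its centre 88 and 78 bp upstream, in a 1 kb window with a CpG ratio of 0.0918, a value lower than at all but 5.99% of starts. In the Cyp2f2 promoter 29 footprinted bases were common to both libraries, and they form 1 footprint, ACCATGCCAGCTGGCTAAGAGCCCAAGGT.

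In Pik3c2g (chr6:139587221-139969284, plus strand) only 1 of the 5 GENCODE starts, the one at 139736895, had a peak within 1 kb in both libraries. Its strongest peak was centred at -424 bp in replicate 1 and at -704 bp in replicate 2 relative to the start. These are separate sites, each found in both libraries. The first (chr6:139736381-139736640) had 0.897 and 0.432, and the second (chr6:139736101-139736320) had 0.757 and 0.644. The start at 139843648 had a peak of 0.521 in replicate 2 alone. A taller peak stood 254 kb into the gene at a start that the basic GENCODE set does not hold and the RefSeq annotation does, at 139841445, and whose use was chosen after the data had been seen. There the heights were 1.67 and 1.09, with the centre of the peak 4 bp upstream and 36 bp downstream of it. With that start counted, the promoter height of Pik3c2g became 1.38 on average instead of 0.771, still under the all-gene median in both libraries. The printed stretch at this inner start holds 25 footprinted bases in replicate 1 and 8 in replicate 2.

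Dio2 (chr12:90724552-90738438, minus strand) had its peak 573 bp upstream of the GENCODE start in both libraries, and 27 bp from the RefSeq start. A weaker peak of 0.229, 114 bp from the GENCODE start, was found in replicate 2 alone. Both Dio2 promoter peaks also lay within 1 kb of a start of another annotated gene, Gm26512, and the taller one lay in an intron of Gm26512. Which gene they serve was not tested. Dio1 (chr4:107291465-107307169, minus strand) had its nearest peaks 6732 and 6652 bp upstream of the first start, with heights of 0.841 and 0.918. These stood within 1 kb of the start of the neighbouring gene Yipf1, whose promoter peak reached 8.46 and 13.4.

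Distal sites followed another order than promoters. A distal peak has its centre in the domain of the gene and over 1 kb from every start of any gene in the basic GENCODE set. Thrb, with a domain of 478 kb, had 37 distal peaks in replicate 1 and 31 in replicate 2, which is 7.74 and 6.49 per 100 kb against medians of 5.78 and 6 over all genes. Thra had 14 and 28 in a domain of only 45.9 kb, or 30.5 and 61 per 100 kb, more than 99.5% and 99.9% of genes. Pik3c2g had 22 in each library, or 4.56 per 100 kb, in a domain of 482 kb. Cyp2f2 had 5 and 4, Dio2 had 2 and 3, and Dio1 had 1 in each. The density at Dio1 was 1.65 per 100 kb in both libraries, and 22.1% and 21.1% of genes had a lower one.

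When the peaks of both libraries were merged wherever they overlapped, the 6 domains held 125 sites, of which 76 were found in both libraries. That made 80% of the 95 domain peaks of replicate 1 and 71.7% of the 106 of replicate 2, against 80.2% and 76.2% over all peaks. Thrb held 42 sites, Pik3c2g 35, Thra 32, Cyp2f2 8, Dio2 5 and Dio1 3. Most sites at Thrb (30 of 42) were shared, while 16 of 32 were at Thra and 18 of 35 at Pik3c2g. Such shares of merged sites were not taken over all peaks. Counted per library like the all-peak shares, 76.9% and 90.9% of the peaks at Thrb were shared in replicates 1 and 2. At Thra 94.1% and 51.6% were, and at Pik3c2g 69.2% and 66.7%. Of the 49 sites seen in 1 library alone, 47 had a height under 1, and the tallest was a Thra site of 1.5 in replicate 2. Heights under 1 are common, since the medians of all peaks were 0.897 and 0.997. The share under 1 among all peaks of 1 library alone was not taken, so the count cannot be called particular to these genes.

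**Figure D2:**
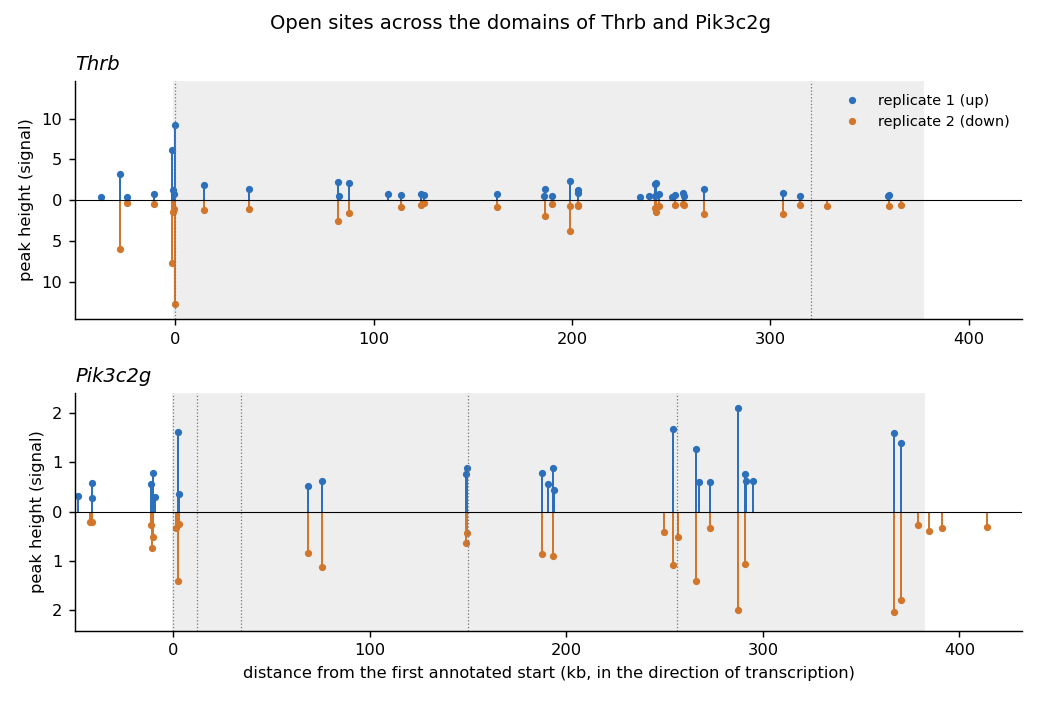
Sites across the domains of Thrb and Pik3c2g, by distance from the first annotated start in kb along the direction of transcription (x axis), with the peak height in signal units upward for replicate 1 and downward for replicate 2. Grey shading marks the gene body and dotted lines the annotated starts. At Thrb the tallest sites, up to 9.27 and 12.7, lie at and just upstream of the first start, while no Pik3c2g site exceeds 2.1.

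The tallest distal sites of Thrb lay upstream of the gene. The first, 1685 bp before the start (chr14:17659121-17659300, intergenic), had 6.19 and 7.66. The second, 27.8 kb before the start (chr14:17633001-17633160, intergenic), had 3.19 and 6. Next came an intronic site 199 kb after the first start (chr14:17859881-17860060), with 2.31 and 3.74. The 23 shared distal sites downstream of the first start were low, with medians of 0.841 and 0.83. They divided evenly between the libraries, 11 being higher in replicate 2 and 12 in replicate 1. The tallest Thrb sites found in 1 library alone reached 0.794 in replicate 1 and 0.741 in replicate 2.

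Upstream site 1 of Thrb carried a footprint in both libraries, at chr14:17659142-17659171 in replicate 1 and chr14:17659142-17659164 in replicate 2. It covers CCACCAGGGGGC at chr14:17659146-17659157, which matches the core of the motif of the insulator protein CTCF. A second footprint of this site, AAGGCAGCTTTGGAGCAAAGCCCAGGAA in replicate 1, was 1 base longer in replicate 2. Upstream site 2 carried 3 footprints in each library, and one of them spans a GGGCGG hexamer, on the strand opposite to the gene, in both.

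By mean height, the tallest distal sites around Thra belonged to the end of the domain that reaches into Nr1d1, the gene of a clock repressor of the nuclear receptor family that lies on the other strand. The site chr11:98773761-98774180, in an intron of Nr1d1, had 29.1 and 40.8, and chr11:98772941-98773180, also in an intron of Nr1d1, had 5.72 and 8.01. The domain stops at 98775332, at the start of Nr1d1. The taller site, centred at 98773971, therefore lies not far beyond the 1 kb limit from that start. Of the 32 sites in the Thra domain, 7 lay in exons or introns of Nr1d1, and which gene they serve was not tested. The tallest in Thra itself was intronic, 5.8 kb after the start (chr11:98747521-98747680), with 4.56 and 8.38, and in replicate 2 it was taller than the second Nr1d1 site. All 16 shared sites of the Thra domain were higher in replicate 2. In addition 15 sites were called in replicate 2 alone and 1 in replicate 1 alone, at 0.906. Of these 15 sites, 13 had no position under a false discovery rate of 0.05 in replicate 1, including the 2 tallest, of 1.5 and 1.29, in Thra introns. The other 2 of 15 had such a position, beside 4 of 30 sites of replicate 2 alone over all 6 genes. The share over all peaks of replicate 2 alone was not taken, so the count cannot be called particular to Thra.

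**Figure D3:**
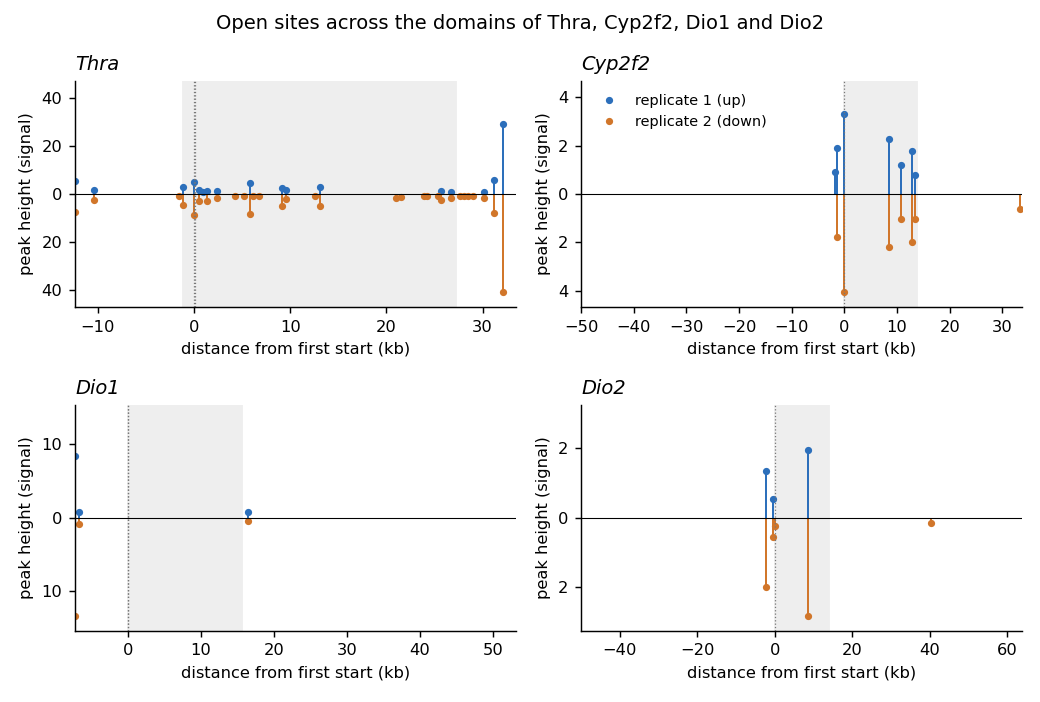
Sites across the domains of Thra, Cyp2f2, Dio1 and Dio2, by distance from the first annotated start in kb (x axis), with the peak height in signal units upward for replicate 1 and downward for replicate 2. Grey shading marks the gene body and dotted lines the annotated starts, and each panel has its own height scale. At Thra many points occur in replicate 2 alone, and the tallest, 29.1 and 40.8, lies in Nr1d1.

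By mean height, the tallest distal site of Pik3c2g was intronic (chr6:139874541-139874720) and had 2.1 and 2. Its longest footprint started at the same base in both libraries and covered TTGGGACTCCAGGGGGCAGTGTGA in replicate 1. Next came an intronic site at chr6:139953661-139953920 with 1.59 and 2.03, the taller of the pair in replicate 2, and a site over a coding exon at chr6:139957641-139957800 with 1.39 and 1.8. Low sites dominated this long gene, with median distal heights of 0.621 and 0.622. The tallest sites found in 1 library alone reached 0.626 in replicate 1 and 0.741 in replicate 2. The latter is not distal, as it lies within 1 kb of a start of another gene, 4930443G03Rik. The tallest distal site of replicate 2 alone had 0.406.

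Cyp2f2 held a compact set of sites of nearly equal height in the libraries. An intronic site 8.45 kb after the start (chr7:27128281-27128460) had 2.27 and 2.19. Another intronic site, near the end of the gene (chr7:27132681-27132860), had 1.78 and 1.98, and a site 1458 bp before the start (chr7:27118341-27118560) had 1.92 and 1.77. The intronic site near the end of the gene is footprinted in both libraries over CCACTAGGTGGC at chr7:27132756-27132767, again a match to the CTCF core. The tallest Cyp2f2 site found in 1 library alone had 0.916, in replicate 1.

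At Dio2 the 2 distal sites found in both libraries were taller than the promoter, and a distal site of replicate 2 alone had 0.141. A site over the coding exon (chr12:90729761-90729940) had 1.93 and 2.82, and one 2233 bp upstream of the start (chr12:90740581-90740760), in an intron of Gm26512, had 1.35 and 1.99. The exonic site was footprinted in both libraries over another match to the CTCF core, CCACCAGTGGGC at chr12:90729846-90729857, read on the strand opposite to Dio2. The upstream site held no match to the full core, but held its shorter form without the first pair of letters, which was searched after this sequence had been seen, as ACTAGGGGGC at chr12:90740664-90740673, inside footprints of both libraries. The single distal site of Dio1, between genes 16.5 kb after the first start (chr4:107290541-107290740), had 0.738 and 0.441.

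Of the domain peaks, 77 of 95 in replicate 1 (81.1%) and 70 of 106 in replicate 2 (66%) had a footprint wholly inside, against 73.8% and 72% of all peaks. They held 176 and 152 footprints, of which 82 and 86 overlapped a footprint of the other library. Thrb had 66 and 41 footprints, Pik3c2g 45 and 28, Cyp2f2 16 and 13, Dio2 7 and 5, and Dio1 5 and 3. Thra alone had more in replicate 2, with 37 and 62. The number of domain peaks was 39 and 33 at Thrb and 17 and 31 at Thra, but 26 and 27 at Pik3c2g, 3 and 5 at Dio2 and 95 and 106 over all 6 genes, so that footprints and peaks did not always differ in the same direction.

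The half-site AGGTCA, searched on both strands in the 300 bp around each site, occurred in 39 of the 125 sites (31.2%), against 25.8% and 24.8% of all peaks. Thrb held 18 of these sites, Pik3c2g 13, Thra 6, and Cyp2f2 and Dio1 1 each. The textbook element of the thyroid hormone receptor, a direct repeat of AGGTCA with 4 free letters between its copies, was in none, and was rare in all peaks as well (0.0184% and 0.0211%). The longer form CAAGGTCA, which contains AGGTCA and is bound by SF-1, the master regulator of steroid-producing cells, was in 10 sites (8%), against 5.54% and 5.3% of all peaks and 1.56% of 32851 RefSeq promoters of 300 bp. Thrb had 6 of these sites, Pik3c2g 3 and Thra 1. The Thrb and Thra matches were all intronic, and 1 of the Pik3c2g matches lay in its promoter.

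At 4 of the CAAGGTCA matches, 3 in Thrb introns and 1 in a Thra intron, footprints of both libraries covered at least 5 of the 8 letters. Footprints were read here wherever they lay, and the Thra match lies outside the peak of replicate 1 (chr11:98754961-98755040), which holds no footprint wholly inside it. The 60 bases around each are shown because they are the only matches of this kind in the 6 domains, with footprinted bases of at least 1 library in capitals. In Thrb elements 1 and 3 the match reads as its reverse complement.
Thrb intron element 1, chr14:17742948-17743007: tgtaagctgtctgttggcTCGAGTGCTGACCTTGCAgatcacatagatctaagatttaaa
Thrb intron element 2, chr14:17748229-17748288: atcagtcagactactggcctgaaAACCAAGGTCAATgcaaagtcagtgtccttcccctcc
Thrb intron element 3, chr14:17902515-17902574: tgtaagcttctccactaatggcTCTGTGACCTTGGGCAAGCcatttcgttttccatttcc
Thra intron element, chr11:98755018-98755077: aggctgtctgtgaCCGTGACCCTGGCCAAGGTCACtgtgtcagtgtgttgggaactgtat

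The sites that hold these elements had heights of 2.19 and 2.59 for element 1, 2.11 and 1.62 for element 2, and 1.99 and 0.927 for element 3. The Thra site had 2.93 and 5.06. At elements 2 and 3 all 8 letters lay inside a footprint in both libraries, at element 1 this was so for 5 and 8 letters, and at the Thra element for 7 and 8, where the footprint of replicate 1 ran past the end of its peak. Among all peaks with a CAAGGTCA, 13.2% and 13.5% had a match wholly inside a footprint, and in the 6 domains 2 of 8 and 4 of 9 peaks did. A match of letters inside a footprint does not say which protein was bound.

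The CTCF core was in 10 sites (8%), against 3.44% and 3.22% of all peaks, and its shorter form was in 13 (10.4%), against 7.31% and 7.08%. The 13 include every site of the full core by construction, and the Dio2 upstream site that had been seen before the search. They are therefore no second, separate result. The 10 sites of the full core were 4 at Thrb, 3 at Pik3c2g and 1 each at Thra, Cyp2f2 and Dio2. The full core lay wholly inside a footprint in 5 of 10 peaks in replicate 1 and in 4 of 9 in replicate 2, against 61.3% and 63.7% of all peaks with the core. The AP-1 type element TGANTCA was in 21 sites (16.8%), against 21.4% and 19.1% of all peaks, and GGGCGG in 19 (15.2%), 9 of them at Thra, against 17.8% and 18.5%.

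Other elements were near their share in all peaks or were rare. The GATA type element AGATAA was in 17 sites (13.6%), against 13.3% and 12.7%, and CCAAT was in 41 (32.8%), against 32.3% and 31.5%. The ETS type element CCGGAAG was in 3 sites (2.4%), against 3.79% and 3.88%, and the cAMP response element TGACGTCA was in 1 (0.8%), at Dio2, against 0.798% and 0.79%. The palindrome bound by steroid receptors was in 3 sites (2.4%), 1 each at Thra, Pik3c2g and Cyp2f2, against 0.777% and 0.778%. No site held an exact match to the palindrome of nuclear factor I or to the NRF1 element, against 0.128% and 0.136% of all peaks for the first and 1.31% and 1.29% for the second. Near matches to these forms were not searched. These counts are small, and sites of 1 gene share a locus, so that no difference was tested. Over all 125 sites the median share of 32-base words that occur once in the reference was 100%, and 121 sites had at least 90%.

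The replicates differed in height in a way that changed from gene to gene. Over all shared peaks, 75.7% were higher in replicate 2, with a median log2 ratio of replicate 2 over replicate 1 of 0.38. That ratio grew with height. In 4 equal classes of shared peaks by mean height it was 0.06, 0.25, 0.42 and 0.59, and 54.9%, 68.6%, 82.1% and 97.1% of peaks were higher in replicate 2. At the 76 shared sites of the 6 genes, 48 (63.2%) were higher in replicate 2, with a median of 0.25. Thra stood at one end, with 16 of 16 sites higher in replicate 2, a median of 0.78 and a range from 0.30 to 1.26. Pik3c2g stood at the other, with 8 of 18 sites higher in replicate 2, a median of -0.13 and a range from -1.51 to 0.86. Thrb had 17 of 30 sites higher in replicate 2 (median 0.11) and Cyp2f2 3 of 6 (median 0.05).

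Each site was therefore also set against the median ratio of its own height class. Below that median lay 20 of 30 sites at Thrb, 15 of 18 at Pik3c2g and 5 of 6 at Cyp2f2, but 4 of 16 at Thra. Dio1 had 2 of 3 and Dio2 had 1 of 3, which made 47 of 76 over the 6 genes. Among all shared peaks as many lie below as above, by the definition of a median. The comparison sets 1 library against another, neighbouring sites share a locus, and no test is possible with 1 library on each side. The lowest ratio at Thrb, -1.10, was at the site of intron element 3.

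**Figure D4:**
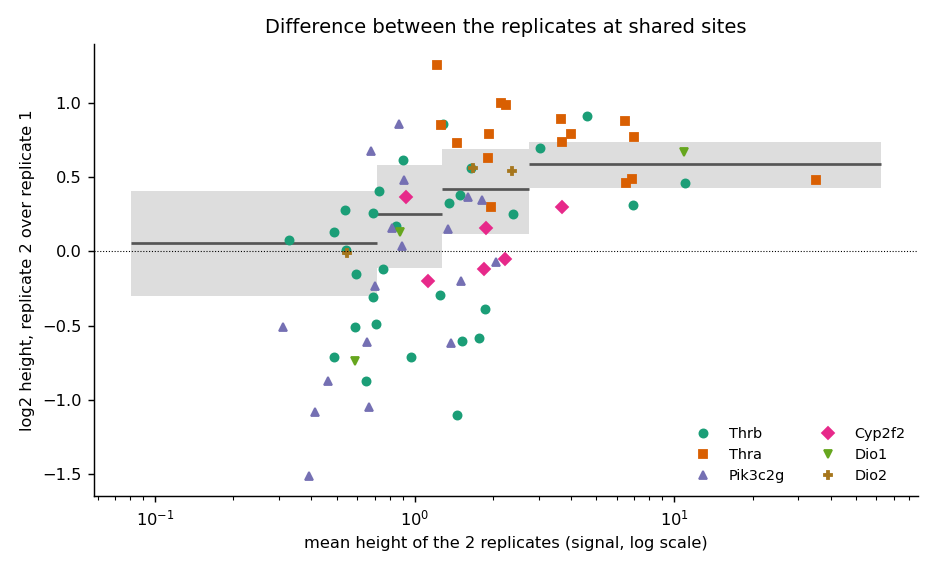
Log2 ratio of the height in replicate 2 over replicate 1 (y axis) against the mean height of both in signal units (x axis, log scale) for the 76 shared sites of the 6 genes. Horizontal lines and grey boxes are the median and the range from the 25th to the 75th percentile of all shared peaks in each of 4 classes by mean height. All 16 Thra sites are above 0, while 10 of 18 Pik3c2g sites and 13 of 30 Thrb sites are below it.

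The rest of the pathway was taken from a list of 26 genes that includes the receptors and Dio1 and Dio2. A promoter peak was present in both libraries in 24 of them, where 67.4% of all protein-coding genes had one, and none had a peak in 1 library alone. The median promoter height was 4.1 and 6.76, above the all-gene medians of 2.97 and 4.46, and 23 of the 24 were higher in replicate 2, as were 96.4% of all genes with a peak in both. Without the 4 members, 21 of 22 genes had a peak. Only Dio1 and Slco1c1, a thyroxine transporter of the brain's vessels, had none in either library.

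The highest promoters were those of the coactivator gene Ncoa2 (21.3 and 31.7), the retinoid X receptor gene Rxrb (20.6 and 27) and the amino acid and thyroid hormone transporter gene Slc16a10 (14.5 and 22.9). The lowest with a peak were those of Dio2, of the corepressor gene Hr (0.85 and 1.03), itself a classical target of the hormone, and of the coactivator gene Ppargc1a (0.906 and 0.989). By role, Hr was counted among the 4 target genes and not among the corepressors, and medians with Hr among the corepressors were not taken. The 5 corepressor genes so listed had medians of 9.21 and 15.2, and the 5 coactivator genes 7.97 and 11.1. The receptors had 7.21 and 10.8, the 3 retinoid X receptor genes 3.71 and 6.23, and the 4 target genes 3.79 and 5.38. The 4 genes of transporters and a binding protein had medians of 1.6 and 2.54, under the all-gene medians, and Slc16a10 alone of them was above. The 3 deiodinase genes differed among themselves. Dio3, whose product inactivates the hormone, had 3.73 and 6.99, where Dio2 had 0.551 and 0.547 and Dio1 none.

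**Figure D5:**
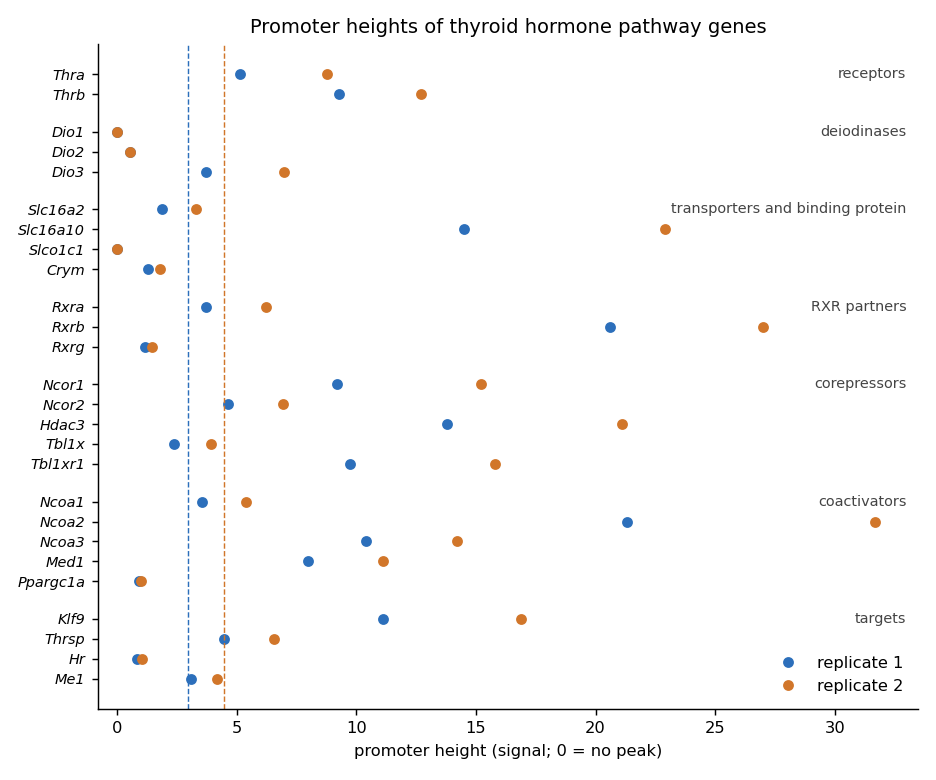
Promoter height in signal units (x axis) of the 26 genes of the thyroid hormone list, grouped by role, in replicate 1 (blue) and replicate 2 (orange). Dashed lines are the medians of all protein-coding genes, 2.97 and 4.46, and a point at 0 means no peak. Among the 3 deiodinases Dio3 alone lies above the lines, and Dio1 and Slco1c1 are at 0.

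Markers of the tissue and its neighbours were read the same way, beside the 67.4% of all genes with a peak in both libraries. Promoter peaks of both libraries marked 7 of 8 cortex genes, with medians of 6.23 and 9.27, and Hsd3b1 had none. The X-zone marker Akr1c18 had 1.6 and 2.26, so that Thrb and Cyp2f2 were above it in both libraries. Pik3c2g was below it at its GENCODE starts, while its RefSeq start had 1.67 in replicate 1, above Akr1c18, and 1.09 in replicate 2, below it. Of 6 medulla genes 4 had a peak in both, a share close to that of all genes, but with medians of 0.869 and 1.06. A peak in both was found at 4 of 5 capsule and stroma genes (medians 4.45 and 6.7) and 4 of 5 endothelial genes (1.82 and 2.27). It was found at 2 of 5 macrophage, 1 of 5 liver and 2 of 5 kidney genes, whose medians were lower than those of the medulla. The all-gene medians were 2.97 and 4.46, so that capsule and stroma lay above them like the cortex. Among thyroid gland markers Tshr and Slc5a5 had one, and Tg, Pax8 and Nkx2-1 were at 0. Of 4 genes listed as lung markers, the club cell genes Scgb1a1 and Scgb3a2 were at 0. The other lung genes, not particular to club cells, were Foxj1 with 13.2 and 17.2 and Sftpc with 1.5 and 2.49, beside the Cyp2f2 heights of 3.3 and 4.07. Of 5 brown fat genes 4 had a peak in both libraries, and Adipoq had none. Elovl3 had 4.29 and 5.95, Cidea 2.62 and 4.38, Prdm16 1.09 and 1.25, and Ucp1 0.411 and 0.724. The summed height of the 5 genes was 8.41 and 12.3, and any part of brown fat in the heights of Dio2 was not tested.

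Among 65 genes of the pathway and marker lists, those nearest to each member in mean promoter height over the 2 libraries, on the log2 scale, were Scarb1 and Ncor1 for Thrb, at differences of 0.06 and 0.15. For Thra they were Pdgfra and Star (0.07 and 0.14), and for Cyp2f2 they were Me1 and Cidea (-0.01 and -0.07). For Pik3c2g they were Th and Lyz2 (0.16 and -0.28), and for Dio2 they were Lrp2 and Tek (-0.02 and -0.04). Likeness over 2 libraries rests on the mean alone, since 96.4% of promoters were higher in replicate 2.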

How the data were processed

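DNase-seq peaks, footprints and false discovery rates of 2 libraries were used as deposited, each made from that library's own alignments to mm10 without pooling, per the text deposited with the samples. Aligner, callers and thresholds were not given in the sources used here. Peak heights are a signal scaled by the authors. The deposited false discovery rates are q-values, listed only under 0.05, and the p-value column of the deposited footprints holds the constant 0.01 and gives no rank. The number of reads was not used here, and heights carry no counting interval. The longer of the 2 peak lists of each library was used (157595 and 166206 peaks, with 297594 and 298189 footprints). The longer lists have median heights of 0.897 and 0.997.

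Starts came from the basic set of GENCODE M21, with 21938 protein-coding genes, and peaks overlapping by at least 1 bp were called shared. Footprints count where wholly inside a peak. Python 3.11.15, numpy 2.4.6, pandas 2.3.3, numba 0.67.0 and matplotlib 3.10.9 were used, and the rules were tested on simulated data. With 1 group of 2 libraries no test was made. The replicate numbers come from the labels, and differences between them measure only the spread of 2 libraries. The members and lists were chosen with earlier results of these data known. Named were all 6 members, pathway genes with no peak, the 3 highest and 3 lowest of that list, the 2 genes nearest each member in height, and for each gene the 3 tallest shared distal sites and the tallest site of 1 library. The Pik3c2g site at the RefSeq start, the motif matches and the isolated marker genes named besides these were picked after their values were seen. Alternatives were the shorter peak list, other windows, flanks, overlaps, transcript sets and scaling, each replicate alone, and, chosen after seeing the data, RefSeq starts. 1 gene of the marker lists is not reported here.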

Additional observations from a re-analysis of the deposited data

How the results depend on the processing

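The number of members with a promoter peak in both libraries was 5 under each of the 7 other settings run for it and from 5 to 5 with either replicate alone. The 6 genes had 85 distal peaks as a mean of the 2 libraries (81 to 89 by replicate), but 54.5 with the shorter, stricter peak lists and 39 with only peaks above the library's median height, by construction, since both leave out low peaks. Flanks of 10 kb and 200 kb gave 77.5 and 104. The share of domain peaks found in both libraries was 75.6% on average and ranged from 67.2% with reciprocal overlap of at least 50% to 84.6% with the shorter lists. The median log2 ratio at shared sites was 0.25, with 0.33 and 0.28 under its alternatives. Footprints numbered 164 (152 to 176 by replicate), and 143 and 173 under the other settings. The pathway list kept a promoter peak in 23 genes with the shorter lists and in 24 otherwise (24 to 24 by replicate). Of 88 settings for single genes, 11 moved a value by more than the rule allowed, among them Pik3c2g from 0.771 to 1.38 with all transcripts or with RefSeq starts, and the distal peaks of Dio2 from 2.5 to 11 with flanks of 200 kb. No paired analysis was possible because the libraries form 1 group. With the depth not analysed here, a site called in 1 library alone may be under the limit of the other. The reference is that of C57BL/6J, 1 parent of the hybrid, and the effect of the other allele was not tested.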
